A study of Mus musculus with 81 samples.

Results

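The genes described were the 4 teneurins (Tenm1, Tenm2, Tenm3 and Tenm4), 3 latrophilins (Adgrl1, Adgrl2 and Adgrl3) and 3 FLRTs (Flrt1, Flrt2 and Flrt3), which are 10 of the 57010 gene IDs in the count tables. They were listed by name and chosen by the Ts versus 2N values of Tenm3 in CA3 pyramidal neurons on the normal diet, with its known partners added. Those values are given as a description with no test, as is every contrast between diets in CA3 pyramidal neurons. All 10 genes passed the filter on low counts in every comparison.

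Neurons were isolated by laser capture from Nissl-stained sections of rostral hippocampus of male mice at about 6 months of age (6 MO). CA1 pyramidal neurons (PNs), CA3 PNs and dentate gyrus granule cells (DGCs) of the same animals gave 1 RNA-seq library each, 81 libraries of 28 mice in all. The mice were trisomic Ts65Dn (Ts), which carry part of mouse chromosome 16 and a centromeric part of chromosome 17 as a free extra segment, or disomic (2N). Every mouse had a Ts65Dn mother and a father that was an F1 hybrid of C57Bl/6J Eicher and C3H/HeSnJ, so the genetic background was mixed in every group. The dams were fed 1.1 g/kg choline chloride (choline normal, ChN, 6 Ts and 6 2N offspring) or 5.0 g/kg (choline supplemented, ChP, 9 Ts and 7 2N offspring), and every mouse ate the 1.1 g/kg diet from weaning. The ChN libraries of CA1 PNs came from 5 Ts and 6 2N mice, and those of CA3 PNs and of DGCs from 6 of each genotype. The ChP libraries of CA1 PNs and of DGCs came from 9 Ts and 7 2N mice, and those of CA3 PNs from 7 of each genotype. Each library pooled the captured cells of 1 mouse, so fewer cells of a type and less RNA per cell cannot be told apart.

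Teneurins are large cell-surface proteins that bind teneurins and latrophilins on the facing cell and help axons and dendrites choose partners. Latrophilins are adhesion G protein-coupled receptors of the synapse that bind teneurins and FLRTs, and FLRTs are leucine-rich repeat membrane proteins that bind latrophilins and Unc5 guidance receptors. In the developing hippocampus, Tenm3 and latrophilin-2 (the product of Adgrl2) are known for complementary patterns along CA1 and the subiculum, where they take part in matching axons to target cells.

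None of the 10 genes lies on the chromosomes that Ts65Dn mice carry in excess. In GRCm39, Tenm3 spans chr8:48678708-49296986 on the minus strand and Adgrl2 spans chr3:148518957-148696229 on the minus strand. Tenm1 lies on chromosome X, Tenm2 on 11, Tenm4 on 7, Adgrl1 on 8, Adgrl3 on 5, Flrt1 on 19, Flrt2 on 12 and Flrt3 on 2. The levels of Tenm3 and Adgrl2 varied in opposite directions among most CA1 PN libraries, so their promoters are shown. RefSeq promoters (GRCm38.p6, 250 bases before to 50 after the annotated start, read 5′ to 3′ along the gene) were found for 9 of the 10 genes, all but Flrt1. The gene spans above are in another build, so their coordinates cannot be set beside those of the windows. Tenm3 has 8 and Adgrl2 20 transcripts in the counting, and 1 annotated start of each is shown. Whether the measured transcripts begin there was not tested. The windows were searched on both strands for the cyclic AMP response element TGACGTCA and for the TATA box letters TATAAA, and capitals mark a match. The Tenm3 window (chr8:48674641-48674940, minus strand) held 1 response element and no TATA box letters. The Adgrl2 window (chr3:148954586-148954885, minus strand) held no response element and 1 TATA box match, read on the opposite strand. Of 32851 promoters of this length, 1.79% held the response element and 13.6% the TATA box letters.
Tenm3: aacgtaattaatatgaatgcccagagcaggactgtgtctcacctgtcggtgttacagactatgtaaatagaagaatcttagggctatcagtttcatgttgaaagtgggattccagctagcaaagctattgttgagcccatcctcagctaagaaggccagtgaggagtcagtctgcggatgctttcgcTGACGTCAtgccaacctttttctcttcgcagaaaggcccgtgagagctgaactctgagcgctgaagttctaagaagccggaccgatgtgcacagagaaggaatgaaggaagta
Adgrl2: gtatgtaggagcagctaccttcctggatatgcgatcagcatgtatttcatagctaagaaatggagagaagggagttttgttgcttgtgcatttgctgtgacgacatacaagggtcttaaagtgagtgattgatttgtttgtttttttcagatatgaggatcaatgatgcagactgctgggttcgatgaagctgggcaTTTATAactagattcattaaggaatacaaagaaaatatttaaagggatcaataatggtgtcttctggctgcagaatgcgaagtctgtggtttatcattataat

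Libraries held between 358355 and 4744036 estimated counts. The DGC and CA3 PN libraries carried the markers of their population, except that 1 Ts ChP library of CA3 PNs (mouse 15-140) also held granule cell markers at a summed 114 CPM (counts scaled to library size), against 2.6 to 15.5 CPM in the other CA3 PN libraries. The CA1 PN libraries fell apart into 17 that were poor and 10 that were rich in markers of CA2, the small field between CA1 and CA3. The 6 CA2 markers summed to 70.9 to 134 CPM in the first and to 422 to 1773 CPM in the second. The 6 CA1 markers summed to 1361 to 1998 CPM in the CA2-poor libraries and to 54.2 to 1078 CPM in the CA2-rich ones. Amigo2, Necab2, Map3k15, Cacng5 and Ccdc3 were at 0 in at least 1 CA2-poor library and in no CA2-rich one. Fibcd1, Mpped1 and Pou3f1, of the CA1 list, were higher in every CA2-poor than in every CA2-rich library, whereas Spink8 had the higher median in the CA2-rich ones (60.6 against 36.3 CPM). The rich libraries came from 2 of 6 2N ChN, 1 of 5 Ts ChN, 3 of 7 2N ChP and 4 of 9 Ts ChP mice. The dividing level, a mean of 4 on the log2 CPM scale over the CA2 markers, was set after the values had been seen. The 10 CA2-rich libraries were also the ones rich in CA3 markers, whose 5 genes summed to 148 to 648 CPM in them and to 4.5 to 38.2 CPM in the 17 others, against 607 to 801 CPM in the CA3 PN libraries. The CA1 library of mouse 16-272, at 648 CPM, lay within the range of the CA3 PN libraries. Inhibitory neuron markers stood apart as well, at 246 to 439 CPM against 138 to 221 CPM. The libraries called CA2-rich thus differed in several cell types, and the part of each in the results on CA1 PNs was not tested. Comparisons with CA1 PNs are given with all libraries, followed by the values without these 10.

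The first question was how the 10 genes differ between the 3 populations, tested in 2N mice with edgeR's quasi-likelihood test, the mouse kept as a block, and Benjamini-Hochberg (BH) adjustment over all genes. Log2 fold changes (LFCs) are given with their standard error (SE), and a gene was called at an adjusted p under 0.05. On ChN, 9 of the 10 genes differed between CA1 and CA3 PNs, 8 distinguished CA1 PNs from DGCs and 5 distinguished CA3 PNs from DGCs. Of all genes tested, 23.1%, 33.9% and 43.3% were called in these 3 comparisons. On ChP, in other mice, 9, 9 and 5 of the 10 genes were called, where 24.6%, 33.0% and 42.0% of all genes were called. The share of members called was thus well above that of all genes for both comparisons with CA1 PNs, and near it between CA3 PNs and DGCs. In the same 3 comparisons on ChN, 3, 10 and 10 of 11 surface partners (listed below) were called. Of 38 other synaptic adhesion genes, 20, 28 and 29 were. On ChP these were 4, 7 and 7 of 10 and 22, 28 and 30 of 37. A high share was thus seen outside the members too, and no set was matched for expression level. Without the CA2-rich libraries, 10 and 9 genes were called on ChN and 9 and 9 on ChP in the comparisons of CA1 PNs with CA3 PNs and with DGCs. The 2N ChN libraries of CA3 PNs also entered the contrast that chose the members, and the ChP libraries did not. The ChN counts that involve CA3 PNs include Tenm3, whose own ChN values against CA3 PNs are therefore given as a description.

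**Figure D1:**
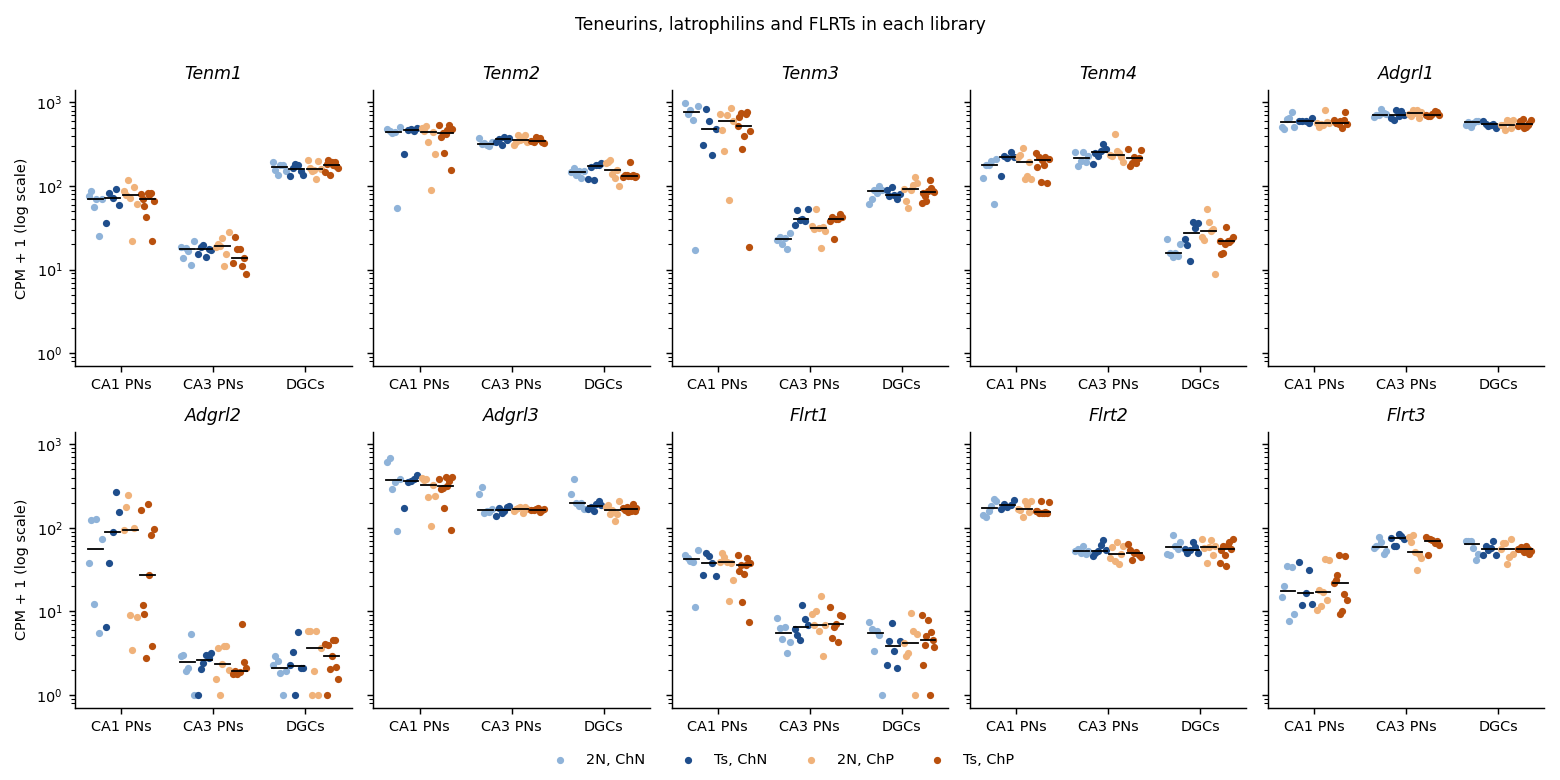
Each point is 1 library, with CPM + 1 on a log axis against population, coloured by genotype and diet, and the bar marks the group median. Adgrl2 and Flrt1 sit high in CA1 PNs and near the bottom of the axis elsewhere, Tenm4 is low in DGCs, Tenm1 is highest in DGCs, and Adgrl1 is nearly level across populations.

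Among the teneurins, Tenm3 had the widest range. It ran from 16.0 to 993 CPM with a median of 706 in 2N CA1 PNs, from 16.9 to 52.0 CPM with a median of 26.1 in 2N CA3 PNs, and from 53.8 to 127 CPM with a median of 89.1 in 2N DGCs. Tenm3 was thus highest in CA1 PNs, intermediate in DGCs and lowest in CA3 PNs, with no overlap between CA3 PNs and DGCs. The CA1 PN libraries of mice 17-21 (16.0 CPM) and 15-336 (67.4 CPM) fell into the range of the other populations, and both were CA2-rich. On ChP, Tenm3 was 14.7-fold higher in CA1 than in CA3 PNs (LFC 3.87 ± 0.41, edgeR adjusted p = 9.5e-06) and 2.87-fold higher in DGCs than in CA3 PNs (edgeR adjusted p = 0.014). On ChN, where the 2N values of CA3 PNs took part in choosing the members, the same folds were 28.5 and 4.08, with no test read from them. CA1 PNs exceeded DGCs by 6.99-fold on ChN and 5.10-fold on ChP (edgeR adjusted p = 0.0045 and 0.00034). With the CA2-rich libraries left out, the LFC of CA1 over CA3 PNs was 4.01 on ChP and 5.24 on ChN.

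Tenm4 took the opposite order at the dentate end. It ran from 59.5 to 282 CPM (median 177) in 2N CA1 PNs and from 173 to 415 CPM (median 230) in 2N CA3 PNs, but from 7.9 to 51.6 CPM (median 21.5) in 2N DGCs. No DGC library reached the range of either pyramidal population. CA3 PNs exceeded DGCs by 13.5-fold on ChN (LFC 3.75 ± 0.21) and 9.40-fold on ChP (3.23 ± 0.19), with edgeR adjusted p of 3.5e-12 and 6.2e-12. The difference between CA1 and CA3 PNs was small (LFC −0.50 ± 0.16 on ChN, edgeR adjusted p = 0.030), and on ChP it missed the threshold without the CA2-rich libraries (LFC −0.22, edgeR adjusted p = 0.13). It was also lost on ChN without mouse 15-145 (−0.41) or 17-172 (−0.53), and on ChP without mouse 15-296 (−0.46) or 15-336 (−0.42). With DESeq2 (−0.49) or with library totals in place of TMM (−0.44) the ChN call was lost as well.

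Tenm1 was the one teneurin highest in DGCs. It ran from 120 to 202 CPM (median 160) in 2N DGCs, from 20.8 to 118 CPM (median 70.7) in 2N CA1 PNs and from 10.1 to 27.1 CPM (median 17.5) in 2N CA3 PNs. DGCs lay above every library of both pyramidal populations, and exceeded CA3 PNs by 10.9-fold on ChN (edgeR adjusted p = 2.6e-14) and 9.20-fold on ChP (edgeR adjusted p = 2.3e-16). Tenm2 was held in both pyramidal populations, with medians of 448 CPM in 2N CA1 PNs and 334 CPM in 2N CA3 PNs against 149 CPM in 2N DGCs. Its LFC between CA1 and CA3 PNs was 0.16 ± 0.33 on ChN and −0.07 ± 0.24 on ChP, short of the threshold. Without the CA2-rich libraries Tenm2 was higher in CA1 PNs on both diets (LFC 0.47 and 0.31, edgeR adjusted p = 1.0e-05 and 0.0083). Its difference from DGCs on ChN lost the call without mouse 17-154 for both CA1 PNs (1.25) and CA3 PNs (1.14), and without mouse 15-145 for CA3 PNs (1.14).

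Among the latrophilins, Adgrl2 was almost restricted to CA1 PNs. In 2N mice it ran from 2.5 to 247 CPM with a median of 72.7 in CA1 PNs, from 0 to 4.4 CPM with a median of 1.4 in CA3 PNs and from 0 to 4.9 CPM with a median of 1.3 in DGCs. In CA3 PNs and DGCs that is a few counts per library, at or near the limit of detection at this depth. Adgrl2 was 26.7-fold higher in CA1 than in CA3 PNs on ChN (LFC 4.74 ± 0.55, edgeR adjusted p = 2.4e-05) and 59.5-fold higher on ChP (5.90 ± 0.69, edgeR adjusted p = 2.1e-05), and because the CA3 PN values rest on so few counts the size of the fold is uncertain. With the CA2-rich libraries left out, these LFCs were 5.47 and 6.59.

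Adgrl3, the latrophilin known as a receptor for FLRT3 and as a gene linked to attention deficit, had medians of 352 CPM in 2N CA1 PNs, 168 CPM (range 149 to 306) in 2N CA3 PNs and 180.1 CPM (range 121 to 388) in 2N DGCs. It was higher in CA1 than in CA3 PNs on ChN (LFC 0.94 ± 0.25, edgeR adjusted p = 0.019) and ChP (0.76 ± 0.18, edgeR adjusted p = 0.0054). The ChN call was lost when mouse 15-145, 15-147, 17-154, 17-172 or 17-56 was left out, with LFCs of 0.85 to 0.94. Without the CA2-rich libraries the LFCs were 1.24 on ChN and 1.14 on ChP. Against DGCs the ChN difference of 0.67 ± 0.25 missed the threshold with all libraries (edgeR adjusted p = 0.063) and was 0.998 without the CA2-rich ones. Adgrl1, whose product is the classical receptor of the spider toxin alpha-latrotoxin, varied least. Its medians were 564, 727 and 569 CPM in 2N CA1 PNs, CA3 PNs and DGCs, and its highest LFC was 0.40 ± 0.08, between CA3 PNs and DGCs on ChP. With library totals in place of TMM that LFC was 0.17 and lost its call, and its ChN difference between CA1 and CA3 PNs lost the call without mouse 15-145, 15-147, 17-172 or 17-56 (−0.30 to −0.25).

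The FLRTs separated by population in opposite directions. Flrt1 had medians of 37.9, 5.5 and 4.2 CPM in 2N CA1 PNs, CA3 PNs and DGCs, and was 7.95-fold higher in CA1 than in CA3 PNs on ChN and 4.96-fold on ChP (edgeR adjusted p = 2.0e-10 and 3.4e-07). Flrt2 followed it, with 169 CPM in 2N CA1 PNs against 51.8 and 57.8 CPM, a difference of 3.24-fold between CA1 and CA3 PNs on ChN and 3.45-fold on ChP (edgeR adjusted p = 5.3e-13 and 7.2e-18). The lowest Flrt2 value in 2N CA1 PNs, 132 CPM, lay above the highest of the other populations, 80.6 CPM. Flrt3 went the other way, with 16.0 CPM in 2N CA1 PNs against 56.1 CPM in CA3 PNs and 56.8 CPM in DGCs. CA3 PNs exceeded CA1 PNs by 3.11-fold on ChN and 2.69-fold on ChP (edgeR adjusted p = 6.1e-05 and 0.0080). With the CA2-rich libraries left out, the LFC of CA1 minus CA3 PNs was 3.03 on ChN and 2.84 on ChP for Flrt1, 1.63 and 1.72 for Flrt2, and −2.32 and −2.38 for Flrt3. CA3 PNs and DGCs did not pass the test for Flrt1, Flrt2 or Flrt3 on either diet.

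Levels of different genes are compared in TPM, the deposited transcript abundance that divides by length, over all libraries. In 2N mice Adgrl1 had the highest median TPM of the 10 genes in each population, from 91.3 in CA1 PNs on ChP to 172 in CA3 PNs on ChP. In CA1 PNs on ChN it was followed by Adgrl3 (106) and Tenm3 (101), but Adgrl1 exceeded Adgrl3 in only 4 of 6 libraries, and Adgrl3 exceeded Tenm3 in only 4 of 6, so this order was not beyond the spread. In CA3 PNs, Adgrl1 exceeded the member with the next highest median in 6 of 6 libraries on ChN (Adgrl3) and 7 of 7 on ChP (Tenm2). Tenm3 ranked 3 of 10 in CA1 PNs and 7 of 10 in CA3 PNs, with a median TPM of 5.92 on ChN and 8.47 on ChP.

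Within the CA1 PN libraries, 2 of the 10 genes did not overlap between the 17 CA2-poor and the 10 CA2-rich libraries, where 1.73% of all genes tested did not overlap. Both were latrophilins. Adgrl2 ran from 26.0 to 268 CPM with a median of 99.4 in CA2-poor libraries and from 1.8 to 11.3 CPM with a median of 6.6 in CA2-rich ones, 15.1-fold lower. Adgrl3 ran from 319 to 682 CPM (median 386) and from 90.5 to 298 CPM (median 204). Tenm2 (480 against 244 CPM), Tenm1 (79.9 against 48.1 CPM), Tenm4 (214 against 125 CPM) and Flrt1 (42.3 against 24.5 CPM) also had higher medians in CA2-poor libraries, with overlap. Flrt3 was the reverse, at a median of 12.8 CPM in CA2-poor and 35.8 CPM in CA2-rich libraries, 2.79-fold higher. Adgrl1 (573 and 587 CPM) and Flrt2 (161 and 176 CPM) were nearly level. Tenm3 did not follow the CA2 markers step by step, since 5 CA2-rich libraries held 598 CPM or more and the CA2-rich libraries of mice 17-21, 16-272 and 15-336 held 16.0, 17.5 and 67.4 CPM. CA3 markers moved with the same division (148 to 648 against 4.5 to 38.2 CPM), and in CA3 PNs Flrt3 was higher and Adgrl2 near 0. The libraries were divided by the data, so no test was made.

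**Figure D2:**
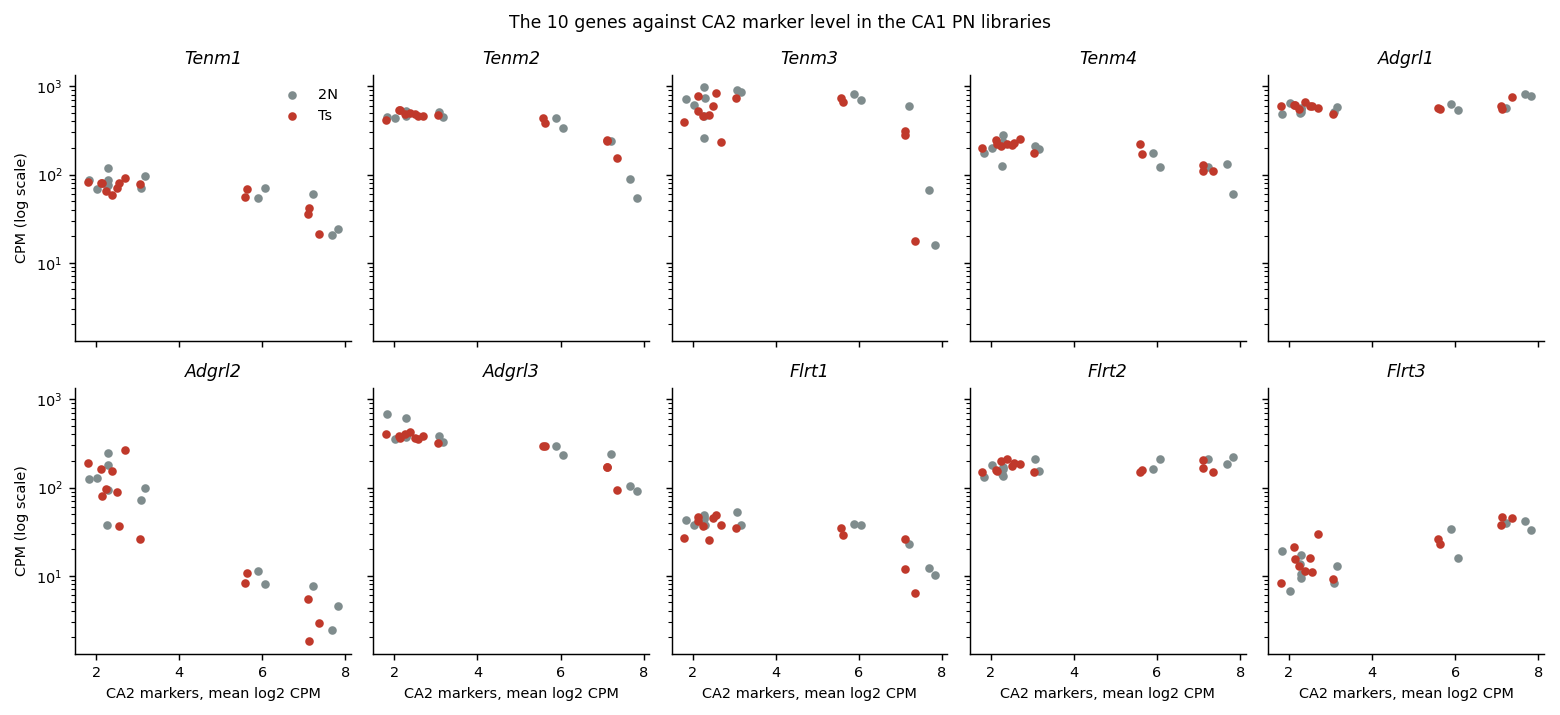
Each point is 1 CA1 PN library, with CPM on a log axis against the mean log2 CPM of the 6 CA2 markers, coloured by genotype. The libraries stand in separate clusters below 3.2 and above 5.5 on the horizontal axis. Adgrl2 and Adgrl3 fall and Flrt3 rises from the left to the right cluster, Ts and 2N points lie together, and Tenm3 drops only in some libraries at the far right.

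Tenm3 and Adgrl2 varied inversely among the 17 CA2-poor CA1 PN libraries. Mouse 17-157 (Ts ChN) had 236 CPM of Tenm3 and 268 CPM of Adgrl2, and mouse 15-296 (2N ChP) had 262 and 247 CPM. At the other end, mouse 15-145 (2N ChN) had 993 and 37.5 CPM, mouse 16-490 (Ts ChN) 843 and 36.9 CPM, and mouse 15-36 (Ts ChP) 733 and 26.0 CPM. With the mean of each genotype and diet group taken off the log2 CPM values, Pearson's r was −0.83 (permutation p = 4.0e-05, BH-adjusted 0.0018 over 180 relations) and Spearman's rho was −0.88 (permutation p = 1.0e-05, the smallest the permutations can give, adjusted 0.0018). Without the 2 libraries farthest from the median of Tenm3, r was −0.82. Without the group means taken off, r was −0.88 in the 8 2N and −0.85 in the 9 Ts libraries, and −0.87 in the 8 ChN and −0.71 in the 9 ChP libraries. The pattern had been seen in the values before it was tested.

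The inverse relation was not seen in the CA2-rich CA1 PN, CA3 PN or DGC libraries. In the 10 CA2-rich CA1 PN libraries r was 0.76 (permutation p = 0.013, adjusted 0.073), with Tenm3 and Adgrl2 low together in mice 17-21, 16-272 and 15-336. Many members varied together in these libraries, since 20 of the 45 pairs passed an adjusted p of 0.05 by Pearson's r there. It was −0.25 over 26 CA3 PN libraries and −0.05 over 28 DGC libraries, where Adgrl2 was near 0. Of the other 44 pairs of members in the CA2-poor libraries, 2 passed an adjusted p of 0.05 by Pearson's r, and neither did by Spearman's rho. These were Tenm4 with Adgrl2 (r = 0.62, permutation p = 0.0070, adjusted 0.048, and 0.071 for rho) and Tenm1 with Flrt2 (r = −0.67, adjusted 0.027, and 0.060 for rho). In DGCs 3 of 45 pairs passed by Pearson's r, the strongest being Tenm2 with Tenm4 (r = 0.65, permutation test, adjusted p = 0.0038, and 0.15 for rho), and in CA3 PNs 0 did.

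**Figure D3:**
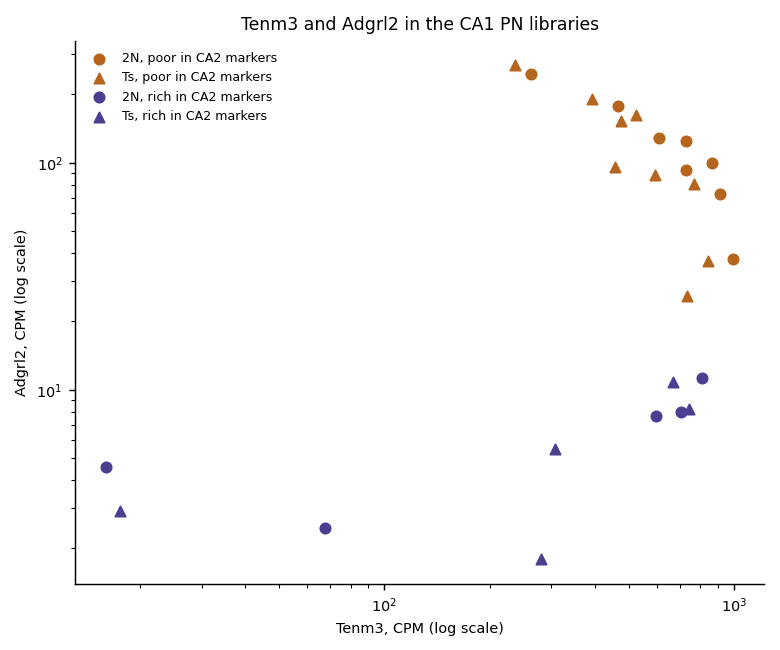
Each point is 1 CA1 PN library, with Adgrl2 against Tenm3, both in CPM on log axes, coloured by CA2 marker content and shaped by genotype. The CA2-poor libraries run down from 268 CPM of Adgrl2 at 236 CPM of Tenm3 to 37.5 at 993, in both genotypes, and the CA2-rich libraries lie at or below 11.3 CPM of Adgrl2.

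The second question was how the genes differ between Ts and 2N mice, in each population and diet. Here a gene was called at an unadjusted p under 0.05, the threshold of the study, and the number at an adjusted p under 0.05 is given beside it. In CA3 PNs on ChN, the contrast that chose the members, Tenm3 was 16.9, 19.5, 21.5, 22.9, 23.4 and 26.1 CPM in the 2N mice 17-21, 17-154, 15-145, 17-172, 15-147 and 17-56. It was 32.9, 36.6, 38.6, 38.9, 51.1 and 52.7 CPM in the Ts mice 16-357, 17-173, 17-153, 17-157, 16-490 and 17-192. All 6 Ts libraries lay above all 6 2N libraries, with an LFC of 0.96 ± 0.16 (SE), or 1.94-fold. The CA3 PN library of mouse 15-145 carried a Ts label while the other libraries of that mouse were labelled 2N, and it was taken as 2N. With it taken as Ts the LFC was 0.80. The next largest LFCs among the members were 0.40 ± 0.35 for Flrt1, 0.25 ± 0.12 for Flrt3 and 0.23 ± 0.11 for Tenm4. Adgrl3 had an LFC of −0.29 ± 0.19, which was −0.14 without mouse 15-147, and that of Flrt1 was 0.12 without mouse 17-157.

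Marker levels stood as follows in those 12 CA3 PN libraries. The CA1 list summed to 20.1 to 49.7 CPM in 2N and 25.8 to 43.2 CPM in Ts mice, and the granule cell list to 4.7 to 8.2 CPM and 4.4 to 9.7 CPM. The CA2 list summed to 70.8 to 102 CPM (median 80.1) in Ts and 35.2 to 86.4 CPM (median 74.1) in 2N mice, where mouse 17-21 was lowest. The inhibitory neuron list was lower in Ts, at 124 to 168 CPM (median 153) against 137 to 356 CPM (median 260). The astrocyte list had a lower median in Ts, 185 against 212 CPM, with overlap. The part of these markers in the Tenm3 difference was not tested.

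In CA3 PNs on ChP, in mice that did not choose the members, 0 of the 10 genes were called in edgeR's test, against 4.99% of all genes. Tenm3 was 17.3, 28.1, 29.7, 30.1, 31.7, 32.3 and 52.0 CPM in 2N mice and 22.1, 37.1, 39.2, 39.5, 41.6, 42.1 and 45.5 CPM in Ts mice. Apart from the lowest Ts value (mouse 15-199) and the highest 2N value (mouse 15-296), the Ts libraries lay above the 2N libraries. The LFC was 0.23 ± 0.16 (95% interval −0.09 to 0.56, edgeR adjusted p = 0.999, unadjusted 0.16). The 95% intervals, here and below, use a normal approximation from the SE. With few mice they are narrower than the edgeR test would give. As each of the 14 mice was left out, the Tenm3 LFC ran from 0.16 to 0.41. Without mouse 15-296 it was 0.41 and without mouse 15-199 it was 0.33, with unadjusted edgeR p of 0.016 and 0.047. These were the 2 libraries that lay against the difference, and Tenm3 was called in no other leave-out. Tenm1, not Tenm3, was the gene called without mouse 15-336 or 15-140, the latter being the library with granule cell markers. The library of mouse 15-296 also had the highest CA2 marker sum of the 2N ChP libraries of CA3 PNs, 135 CPM, and the part of these markers was not tested. Tenm1 had the smallest p in this comparison, 0.073, with an LFC of −0.40 ± 0.22.

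In DGCs on ChN, 1 of the 10 genes was called, against 8.50% of all genes, and none passed an adjusted p of 0.05 (edgeR). This was Tenm4, a teneurin also known for a role in oligodendrocyte development. It was 13.3, 13.6, 14.6, 14.7, 19.0 and 22.0 CPM in 2N and 11.7, 18.6, 22.3, 30.3, 35.0 and 35.9 CPM in Ts mice. In Ts mice 4 values lay above all 2N values and 1 lay below them, and the LFC was 0.64 ± 0.23 (edgeR adjusted p = 0.33, unadjusted 0.0070). CA3 PNs hold far more Tenm4 than DGCs, and the CA3 marker list in these DGC libraries summed to 109 to 142 CPM in 2N and 111 to 149 CPM in Ts mice. The part of these markers in the Tenm4 difference was not tested. Tenm3 in DGCs ran from 59.6 to 99.7 CPM in 2N and from 68.1 to 95.3 CPM in Ts mice, with an LFC of −0.02 ± 0.12 (95% interval −0.25 to 0.20).

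In DGCs on ChP, 0 of the 10 genes were called, against 7.60% of all genes, and the smallest edgeR p was 0.14. Tenm4 was 7.9, 21.5, 23.2, 27.8, 29.4, 36.0 and 51.6 CPM in 2N mice and between 14.2 and 31.2 CPM with a median of 21.0 in Ts mice. The LFC of −0.33 ± 0.22 (95% interval −0.77 to 0.10) thus had the opposite sign to that on ChN. Without mouse 16-90, which had the lowest Tenm4 value of all DGC libraries, Tenm4 and Tenm2 were both called.

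In CA1 PNs, 0 of the 10 genes were called on ChN, against 3.77% of all genes, and 0 on ChP, against 3.60%, with smallest edgeR p of 0.18 and 0.40. The intervals were wide, although the normal approximation makes them narrower than the edgeR test would give. The Tenm3 LFC was −0.48 (95% interval −1.87 to 0.90) on ChN and −0.05 (−1.15 to 1.05) on ChP, and that of Adgrl2 was 0.77 (−1.06 to 2.61) and −0.48 (−2.33 to 1.38). Without the CA2-rich libraries these LFCs were −0.61 and −0.04 for Tenm3 and 0.51 and −0.43 for Adgrl2. Tenm4 was then called on ChN (LFC 0.35, edgeR adjusted p = 0.45, unadjusted 0.0079) and Tenm1 on ChP (−0.29, edgeR adjusted p = 0.70, unadjusted 0.044).

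**Figure D4:**
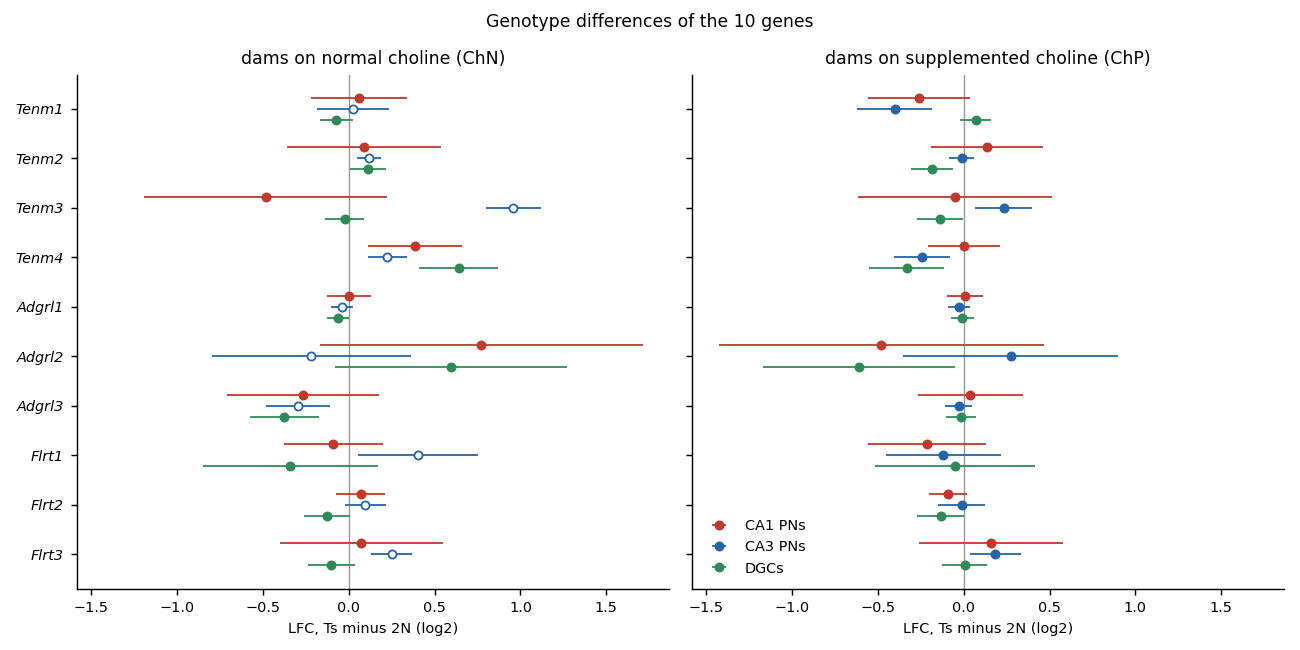
Points are the LFC of Ts versus 2N for each gene with bars of 1 SE, by population, with ChN on the left and ChP on the right. Open points are the CA3 PN contrast that chose the members. Tenm3 in CA3 PNs on ChN stands at 0.96, Tenm4 in DGCs is at 0.64 on ChN and −0.33 on ChP, and the bars are widest for Adgrl2 and for Tenm3 in CA1 PNs.

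Whether the genotype difference of a gene differed between populations was tested over the ChP libraries, with the mouse as a block. None of the 10 genes was called between CA1 and CA3 PNs, CA1 PNs and DGCs, or CA3 PNs and DGCs (edgeR, smallest p of 0.17, 0.15 and 0.15), against 3.52%, 4.25% and 3.93% of all genes. Tenm3 had a difference in genotype LFC of −0.20 ± 0.59 between CA1 and CA3 PNs and 0.21 ± 0.64 between CA3 PNs and DGCs. With the CA2-rich libraries left out, Tenm2 was called between CA1 PNs and DGCs (0.32, edgeR adjusted p = 0.90, unadjusted 0.013) and Tenm1 between CA3 PNs and DGCs (−0.43, edgeR adjusted p = 0.84, unadjusted 0.025).

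The third question was how the maternal diet altered the 10 genes, fitted over the 4 groups of a population. In CA1 PNs, 0 of the 10 genes were called between ChP and ChN in 2N mice, 0 in Ts mice and 0 for the interaction of genotype and diet (edgeR), where 3.27%, 3.05% and 3.22% of all genes were called. Without the CA2-rich libraries, Tenm4 was higher (LFC 0.37, edgeR adjusted p = 0.66, unadjusted 0.0040) and Adgrl3 lower (−0.46, edgeR adjusted p = 0.80, unadjusted 0.018) on ChP in 2N mice, and the interaction was called for Tenm4 (−0.48, edgeR adjusted p = 0.92, unadjusted 0.0055).

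In DGCs, 2 of the 10 genes were called in 2N mice, against 5.82% of all genes, 0 in Ts mice, against 3.81%, and 1 for the interaction, against 3.97%, and none passed an adjusted p of 0.05 (edgeR). Tenm4 was higher on ChP in 2N mice, with an LFC of 0.72 ± 0.26 (edgeR adjusted p = 0.74, unadjusted 0.0079). Its 7 ChP values in 2N mice ran from 7.9 to 51.6 CPM, with 5 above the highest ChN value of 22.0 CPM. In Ts mice its LFC was −0.25 ± 0.23, and the interaction was −0.97 ± 0.35 (edgeR adjusted p = 0.9997, unadjusted 0.0069). Adgrl3 was lower on ChP in 2N mice, with an LFC of −0.47 ± 0.15 (edgeR adjusted p = 0.70, unadjusted 0.0038). The groups overlapped, with 121 to 210 CPM on ChP and 168 to 388 CPM on ChN, where mice 15-145 and 15-147 were the 2 highest. Without mouse 15-147 the LFC was −0.24 and still called (edgeR), over a range of −0.54 to −0.24 as each mouse was left out.

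In CA3 PNs, given with no test, Tenm3 had an LFC between ChP and ChN of 0.61 ± 0.17 in 2N mice and −0.10 ± 0.16 in Ts mice, an interaction of −0.72 ± 0.23. The median in 2N mice was 22.2 CPM on ChN and 30.1 CPM on ChP, and in Ts mice 38.8 and 39.5 CPM. Tenm4 had 0.25 ± 0.16 in 2N and −0.21 ± 0.16 in Ts mice.

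Adgrl3 and Tenm4 deviated from their group together in different populations of the same mouse. Mice 15-145 and 15-147, both 2N ChN, had 617 and 682 CPM of Adgrl3 in CA1 PNs, where the other 4 mice of the group had 90.5 to 387 CPM. They had 252 and 306 CPM in CA3 PNs, against 150.5 to 167 CPM in the others, and 256 and 388 CPM in DGCs, against 168 to 199 CPM. In all 3 populations these were the 2 highest of all mice. Over mice, with group means taken off and CA2-rich libraries left out, Adgrl3 gave r = 0.89 between CA1 and CA3 PNs and 0.84 between CA1 PNs and DGCs (17 mice each), and 0.77 between CA3 PNs and DGCs (26 mice). The permutation p values were 2.0e-05, 5.0e-05 and 3.0e-05, or 0.00045, 0.00050 and 0.00045 after BH adjustment over 30 relations, and rho was 0.71, 0.72 and 0.60 (adjusted p = 0.016 each). Without the 2 mice farthest from the median, r was 0.75, 0.70 and 0.56. Over the 7647 genes with a mean log2 CPM of at least 4, the median r was 0.083, 0.099 and 0.088, and 0.235%, 0.366% and 0.588% of them had an r as high as that of Adgrl3.

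For Tenm4, r between CA3 PNs and DGCs was 0.65 (permutation p = 0.00040, adjusted 0.0030), rho was 0.61 (adjusted p = 0.016), and r without the 2 farthest mice was 0.60. Mouse 15-296 was the highest 2N ChP mouse in each population, with 282 CPM in CA1 PNs, 415 CPM in CA3 PNs and 51.6 CPM in DGCs. Mouse 16-90 was the lowest of that group in each, with 120, 191 and 7.9 CPM. Between CA1 PNs and the other populations Tenm4 gave no such relation at the adjusted threshold. For Tenm3, r was 0.52 between CA1 PNs and DGCs (permutation p = 0.030, adjusted 0.12), and no relation between CA3 PNs and another population passed. The populations of 1 mouse came from the same animal and the same sections.

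Other proteins of the pathway were read from 3 lists. They held 11 surface partners of FLRTs or latrophilins, 7 cytoplasmic or nuclear partners of latrophilins or teneurins, and 38 other synaptic adhesion genes. The surface list also counts Adgrl4, the remaining latrophilin family gene. Of the surface partners, 2 were higher and 1 was lower in Ts DGCs on ChN among 9 tested, and 1 of 9 was lower on ChP, where 8.50% and 7.60% of all genes were called. Nrxn3, a presynaptic neurexin, was higher in Ts DGCs on ChN (LFC 0.45 ± 0.11, edgeR adjusted p = 0.036), and its LFC on ChP was 0.27 ± 0.25. Robo1, a Slit receptor that binds FLRT3, was lower in Ts DGCs on both diets (−0.37 ± 0.16 and −0.43 ± 0.14, edgeR adjusted p = 0.51 and 0.24, unadjusted 0.026 and 0.0041). In CA3 PNs on ChP, where 4.99% of all genes were called, 1 of 11 surface partners was, Unc5c, a netrin receptor that also binds FLRTs, which was lower in Ts mice (−0.35 ± 0.07, edgeR adjusted p = 0.014).

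Of the 35 other adhesion genes tested in DGCs, 6 were higher and 2 lower in Ts mice on ChN, and 3 were higher and 4 lower on ChP, against 8.50% and 7.60% of all genes called. Their median LFC was 0.04 on ChN and 0.03 on ChP, against 0.00 and 0.01 over all genes. Slitrk1, a postsynaptic leucine-rich repeat protein, was higher on both diets (0.26 ± 0.10 and 0.47 ± 0.10, edgeR adjusted p = 0.37 and 0.0049). Cadm3 was also higher (0.31 ± 0.08 and 0.20 ± 0.08, edgeR adjusted p = 0.057 and 0.39) and Cadm2 lower (−0.20 ± 0.07 and −0.14 ± 0.07, edgeR adjusted p = 0.27 and 0.57), both being synaptic immunoglobulin adhesion proteins. In CA1 PNs none of these adhesion genes was called on either diet. In CA3 PNs on ChP 1 was higher and 1 lower in Ts mice among 35 tested, against 4.99% of all genes called. Counts in CA3 PNs on ChN were not read, since that contrast chose the members. Slitrk2 had an LFC of 0.79 ± 0.18 in that contrast, given with no test, and of 0.15 ± 0.20 in CA3 PNs on ChP. None of the cytoplasmic or nuclear partners passed an adjusted p of 0.05 (edgeR) in CA1 PNs or DGCs on either diet or in CA3 PNs on ChP. At an unadjusted p under 0.05 there was 1 in CA3 PNs and 1 in DGCs, both on ChP.

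The genes most like Tenm3 over the 12 means of population, genotype and diet were Inafm2, Adgrb3, Cadps2, Arpc2 and Fibcd1, each with a Pearson r of 0.99 on log2 CPM. Fibcd1 is one of the CA1 markers used above. The Tenm3 means stood apart by population, at 8.5 to 8.8 in CA1 PNs, 6.3 to 6.5 in DGCs and 4.5 to 5.4 in CA3 PNs. These r values thus mainly reflect the order of the 3 populations. Over the 26 CA3 PN libraries with group means taken off, they were Ap3m2 (0.81), Tmem132b (0.77), Cadps2 (0.76), Slc24a3 (0.75) and Adgrb3 (0.74), of 7647 genes. Cadps2, a factor of dense-core vesicle release, and Adgrb3, an adhesion receptor of synapses, were in both lists. These points shared libraries and depth, and the values are descriptive.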

How the data were processed

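RNA was purified from laser-captured neurons and sequenced with the SMARTer Stranded Total RNA-Seq Pico v3 kit. The authors checked reads with FastQC 0.11.9, trimmed them with Trimmomatic 0.39, aligned them to GRCm39 with STAR and deposited RSEM expected counts and TPM per gene, with Picard 2.26.2 among the submitters' tools. The members and lists were chosen with earlier results of these data known. Every member is named, whatever its value. Expected counts were rounded (0.784% were not whole) and genes were kept where 10 or more libraries of the fit exceeded 0.1 CPM. CPM values used TMM scaling in edgeR 4.0.16 (R 4.3.3), whose quasi-likelihood test gave two-sided p values. The study's covariates (RNA concentration and read metrics) were not used here. DESeq2 1.42.0 and limma 3.58.1 (voom) were alternatives, as were library totals, no filter, filterByExpr with a minimum count of 10 and leaving out 1 mouse at a time. Correlations used log2 CPM with a prior count of 2 and permutation tests drawn with Python 3.11.15. Other genes were named only at an adjusted p under 0.05 in a genotype comparison, or an unadjusted p under 0.05 with the same sign on both diets, and those closest to Tenm3 were the 5 with the highest r. The division of CA1 libraries by CA2 markers was added after seeing the data. The scripts were tested on simulated data.

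Mouse numbers in the labels pair the populations. Over 78 same-mouse pairs of libraries the deviations from the group means correlated with r from −0.01 to 0.23 (median 0.10), and the mouse was kept as a block wherever populations were compared. Library totals were 625249 to 4744036 on ChN and 358355 to 2559173 on ChP. No 2 libraries of a group agreed within sampling noise. Y-linked genes exceeded Xist in 35 of 35 ChN and 46 of 46 ChP libraries. Each mouse is 1 replicate, and the Ts CA1 library of mouse 17-192 and the CA3 libraries of mice 15-198 and 16-272 were not analysed here. The kit marks strand, and how strand was set in the counting is not given in the sources used here.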

Additional observations from a re-analysis of the deposited data

Results flagged for a closer look

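Single libraries stood apart from their group in 11 of 120 checks, or 9.17%, where chance gives about 1 in 20. In CA1 PNs, mouse 17-21 (2N ChN, CA2-rich) was lowest for Tenm2, at 53.8 CPM with the next at 434 CPM, and for Flrt1, at 10.3 CPM with the next at 37.9 CPM. Mouse 16-357 (Ts ChN, CA2-rich) was lowest for Tenm2, at 243 CPM against 457 CPM, and for Adgrl3, at 172 CPM against 356 CPM. Adgrl1 was highest in the CA2-rich libraries of mice 15-336 (2N ChP, 815 CPM against 577 CPM) and 16-272 (Ts ChP, 759.7 CPM against 617 CPM). All 6 of these values thus came from 4 CA2-rich libraries. In CA3 PNs on ChP, mouse 15-296 (2N) was highest for Tenm3 (52.0 CPM against 32.3 CPM) and Tenm4 (415 CPM against 263 CPM). Mouse 15-199 (Ts) was lowest for Tenm3 (22.1 CPM against 37.1 CPM), and mouse 15-36 (Ts) was highest for Adgrl2 (6.03 CPM against 1.52 CPM). In DGCs on ChP, mouse 15-245 (Ts) was highest for Tenm2 (194 CPM against 135 CPM).

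The estimated interaction of genotype and diet for Tenm4 in DGCs was an LFC of −0.97 (edgeR interaction, adjusted p = 0.9997, unadjusted 0.0069). It did not pass the adjusted threshold, and 0 of the 16537 genes tested for this interaction did. Tenm4 ran from 13.3 to 22.0 CPM in 2N ChN and from 7.9 to 51.6 CPM in 2N ChP mice.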

How the results depend on the processing

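With 1 mouse left out at a time, none of 49 LFCs that were called changed sign, and 43 of 121 that were not called did. In the diet and interaction fits of CA1 PNs only 7 mice were left out in turn. The genotype LFC of Adgrl2 in DGCs on ChN passed the filter in only 2 leave-outs. A range over fewer leave-outs can miss a change of sign. The Tenm3 LFC between genotypes turned positive in CA1 PNs on ChN with limma-voom (0.057), in DGCs on ChN (range −0.088 to 0.034, positive without 16-490 at 0.0041, 17-173 at 0.0088, 17-154 at 0.00018 or 17-21 at 0.034) and in CA1 PNs on ChP (range −0.25 to 0.10, positive without 14-125 at 0.028, 15-334 at 0.019, 16-273 at 0.097, 15-199 at 0.018 or 16-272 at 0.105). None of these was called. Of the other LFCs of single genes, 30 lost and 2 gained a call and 828 were unchanged. Only LFCs called with all mice, those of Tenm3 between genotypes and those described in CA3 PNs entered these counts. A call gained by another gene could not enter here, and shows only in the counts of called genes. Unchanged meant the same sign and side of the threshold for tested LFCs. For the LFCs described in CA3 PNs it meant a shift below the standard deviation within groups. The counts of called genes were pooled with the described Tenm3 and median LFCs between genotypes in CA3 PNs on ChN. Of these values 27 moved and 301 did not, where a count moved if it changed by over 1.5 times or to or from 0. Without the mouse as a block, 7 (ChN) and 8 (ChP) genes distinguished CA1 from CA3 PNs, 8 and 9 distinguished CA1 PNs from DGCs, and 5 and 5 distinguished CA3 PNs from DGCs, while genotype by population stayed at 0. Tenm4 on both diets and Adgrl3 on ChN then lost the call between CA1 and CA3 PNs. Without the CA2-rich libraries, an alternative chosen after seeing the data, the genotype count in CA1 PNs became 1 on ChN and 1 on ChP, the diet count in 2N CA1 PNs became 2, the interaction in CA1 PNs became 1, and genotype by population became 1 for CA1 PNs against DGCs and 1 for CA3 PNs against DGCs. With no filter, 1 gene was called between genotypes in CA3 PNs on ChP (Tenm4), 1 between diets in Ts DGCs (Tenm2) and 3 for the interaction in DGCs (Tenm2, Tenm4 and Adgrl3). The cause was not tested.

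Leaving out each mouse, the genotype counts ran from 1 to 2 in DGCs on ChN (2 without 17-56), 0 to 1 in CA3 PNs on ChP (1 without 15-296, 15-199, 15-336 or 15-140), and 0 to 2 in DGCs on ChP (2 without 16-90, 1 without 15-245), and stayed at 0 in CA1 PNs. The population counts on ChN ran from 6 to 10 for CA1 against CA3 PNs, 7 to 9 for CA1 PNs against DGCs and 3 to 6 for CA3 PNs against DGCs (3 without 15-145 or 17-154), and on ChP from 8 to 9, 9 to 9 and 5 to 5. In DGCs the diet counts ran from 2 to 3 in 2N mice and 0 to 2 in Ts mice (2 without 17-153, 1 without 14-90, 15-199 or 15-245), and the interaction from 1 to 3 (3 without 16-90, 2 without 17-153, 17-172, 17-56 or 15-245). Depth limits Adgrl2 outside CA1 PNs and Flrt1 outside CA1 PNs, where libraries held few or no counts.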
